A study of Mus musculus with 4 samples.

Results

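Foxp3 and the Ikaros family genes Ikzf1, Ikzf2, Ikzf3 and Ikzf4 were measured in unconventional αβ T cells (UTCαβ) of mouse sarcomas, which were sorted for a T cell receptor β chain and for the absence of surface CD4 and CD8. These 5 genes, of the 27998 listed in the deposited matrices, were taken by symbol. They were read in the 21342 of 32525 barcodes (droplets taken to hold 1 cell) that held 1 or more UMIs of Cd3e and 200 or more genes, with no more than 20000 UMIs in all and no more than 10% of them mitochondrial. A UMI, or unique molecular identifier, marks 1 captured molecule. Sarcomas were raised with 3-methylcholanthrene in male mice on the C57BL/6J background, which were either Csf3r+/+ or Csf3r-/-. Csf3r-/- mice lack the receptor for G-CSF in every cell of the body and have few neutrophils. Each genotype gave 2 libraries of 3′ transcript ends, which are biological replicates from 2 sarcomas of 2 mice. Ages are not given in the sources used here. The numbers at the end of the barcodes, which separate the libraries of a genotype, are used here as names only.

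Foxp3 is the lineage factor of regulatory T cells, which restrain immune responses and accumulate in many tumors. The Ikaros family consists of zinc finger proteins that bind DNA, pair with each other and recruit chromatin-modifying complexes such as NuRD. Ikzf1 encodes Ikaros, the founding member in lymphocytes. Ikzf2 encodes Helios, which is found in many regulatory T cells and in several innate-like T cell lineages. Ikzf3 encodes Aiolos, which has been linked to type 17 helper T cells, and Ikzf4 encodes Eos, a partner of Foxp3 in gene silencing. The question of the study, which polarization UTCαβ take with and without neutrophils, is addressed here for these regulators.

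In GENCODE vM21 (GRCm38) Foxp3 lies at chrX:7573644-7595245 on the plus strand and Ikzf1 at chr11:11685003-11772926 on the plus strand. Ikzf2 lies at chr1:69531214-69687245, Ikzf3 at chr11:98464902-98546031 and Ikzf4 at chr10:128630843-128645991, all on the minus strand. No run of 31 bases from the last 300 bases of a coding transcript of Foxp3, Ikzf1, Ikzf3 or Ikzf4 occurred in the same stretch of another gene. For Ikzf2, 6 of 1262 such runs did, in 223 other genes, none of them a member. The 3′ end of Foxp3 lies within Ccdc22 on the opposite strand, and that of Ikzf2 within Gm29114. Ccdc22 had 10.7 to 23.1 CPM (UMIs of the gene per 1000000 UMIs of the library) and Gm29114 had 1 to 3 UMIs per library. Whether counting used the strand is not stated, so Foxp3 reads are uncertain in this respect.

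The kept cells numbered 2843 and 6458 in Csf3r+/+ libraries 1 and 2, and 5215 and 6826 in Csf3r-/- libraries 1 and 2. Median depths were 1983 to 3055 UMIs per cell. They were 78.4% and 56.1% of the barcodes of the Csf3r+/+ libraries and 72.7% and 66.9% of those of the Csf3r-/- libraries. The paper reports more cells left after its own removal of cells without Cd3e UMIs. Of the kept cells, 426 shared their barcode sequence with a cell of another library. Csf3r itself, a neutrophil gene, had 1 to 3 UMIs in every library, too few to check the genotype in T cells. All 4 T cell genes of the T cell list that are in the matrices were detected. At a depth of 1500 UMIs per cell, a Cd4 UMI was found in 0.403% of cells, a Cd8a UMI in 0.199% and a Cd8b1 UMI in 2.55%. Macrophage genes stood apart between libraries: all 9 of the list had UMIs in every library, and their sum was 24.1 and 312.5 CPM in Csf3r+/+ libraries 1 and 2 and 131 and 1531 CPM in the Csf3r-/- ones. B cell genes summed to 13.6 to 70.9 CPM, with 1 to 4 of the 4 listed detected, neutrophil genes to 1.76 to 5.81 CPM and fibroblast or sarcoma genes to 0.379 to 4.06 CPM. No doublets were removed.

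Foxp3 was rare in every library and differed more between libraries of one genotype than between genotypes. It had 16 and 188 UMIs in Csf3r+/+ libraries 1 and 2, or 1.63 and 7.91 CPM. It had 28 and 156 UMIs in Csf3r-/- libraries 1 and 2, or 1.98 and 9.61 CPM. Library 2 was thus the higher one in both genotypes, and the exact 95% Poisson intervals of both libraries numbered 1 lay below those of both numbered 2 (highest upper bound 2.86 CPM, lowest lower bound 6.82 CPM). The ranges of the genotypes overlapped. The means were 4.77 ± 4.45 CPM in Csf3r+/+ and 5.79 ± 5.39 CPM in Csf3r-/- (SD, n = 2 libraries each). The log2 fold change, here and below Csf3r-/- over Csf3r+/+, was 0.12 with a standard error (SE) of 1.03 (edgeR's quasi-likelihood test on summed UMIs, adjusted p = 0.977).

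Ikzf2, encoding Helios, stood out in a single library. Its level was 316 and 627 CPM in Csf3r+/+ libraries 1 and 2, and 284 and 319 CPM in Csf3r-/- libraries 1 and 2. Csf3r+/+ library 2 was the high one, while the other 3 libraries lay between 284 and 319 CPM, and the genotypes overlapped. Means were 471 ± 220 and 301 ± 25.2 CPM (SD, n = 2 each), with a log2 fold change of -0.77 (SE 0.42, edgeR adjusted p = 0.487). Without Csf3r+/+ library 1 the value was -1.24 with an edgeR adjusted p of 0.0427. That fit has 1 Csf3r+/+ library, which is assumed to vary like the Csf3r-/- libraries.

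Ikzf3, encoding Aiolos, was the member whose levels did not overlap between the genotypes. It had 103 and 66.4 CPM in Csf3r+/+ libraries 1 and 2, and 233 and 352 CPM in Csf3r-/- libraries 1 and 2. Both Csf3r-/- libraries were above both Csf3r+/+ libraries. Means were 84.6 ± 25.8 and 292 ± 84.5 CPM (SD, n = 2 each). On the log2 scale the genotypes differed by 1.71 (SE 0.32), which did not pass the test after adjustment over all 11491 genes (edgeR adjusted p = 0.126). DESeq2 gave 1.72 with an adjusted p of 2.2e-04, and edgeR with no filter on low counts gave an adjusted p of 0.0383. Groups of 2 against 2 that do not overlap give the smallest p of an exact two-sided permutation test over libraries, 0.333. The 1 of 5 members without overlap compares with 47.9% of all genes tested. Macrophage genes summed to 24.1 and 312.5 CPM in Csf3r+/+ libraries 1 and 2, and to 131 and 1531 CPM in Csf3r-/- libraries 1 and 2. Their part in the Ikzf3 values was not tested.

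Ikzf1 and Ikzf4 showed no order by genotype. Ikzf1, encoding Ikaros, had 77.5 and 107 CPM in the Csf3r+/+ libraries and 84.6 and 79.3 CPM in the Csf3r-/- libraries, with a log2 fold change of -0.29 (SE 0.26, edgeR adjusted p = 0.681). Ikzf4, encoding Eos, was close to the limit of detection, with 9 and 75 UMIs in Csf3r+/+ and 17 and 44 UMIs in Csf3r-/- libraries. Its levels were 0.916 and 3.16 CPM against 1.20 and 2.71 CPM, a log2 fold change of -0.24 (SE 0.77, edgeR adjusted p = 0.926). As for Foxp3, the libraries numbered 2 were the higher ones. In this comparison edgeR called none of the 5 members and 0 of all 11491 genes (0%), with 1663 genes at an unadjusted p under 0.05, and DESeq2 called 626 genes.

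**Figure D1:**
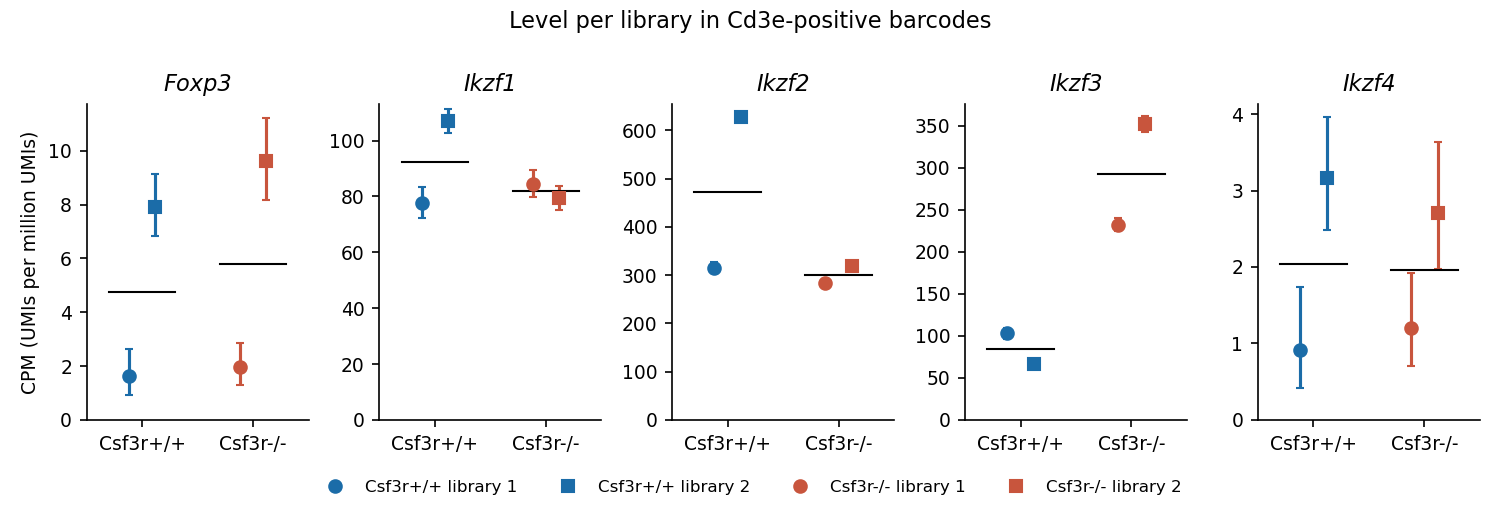
Level of each gene in CPM (linear axis from 0) in the 2 Csf3r+/+ (blue) and 2 Csf3r-/- (red) libraries, with exact 95% Poisson intervals and black lines at the genotype means. Foxp3 and Ikzf4 are higher in library 2 of both genotypes, Ikzf2 is high in Csf3r+/+ library 2, and Ikzf3 is the gene whose Csf3r-/- values (233 and 352 CPM) lie above both Csf3r+/+ values (103 and 66.4 CPM).

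The same pattern was seen in the share of cells with a UMI. For this, each cell was thinned at random to 1500 UMIs, because the libraries differed in depth, which left 19624 cells. Shallower cells were left out, namely 63 and 139 of the Csf3r+/+ cells and 541 and 975 of the Csf3r-/- cells (libraries 1 and 2). An Ikzf3 UMI was found in 14.3% and 9.95% of cells of the Csf3r+/+ libraries and in 28.8% and 38.2% of cells of the Csf3r-/- libraries. The mean difference was 21.4 percentage points (exact two-sided permutation p = 0.333, the smallest that 2 against 2 libraries can give). An Ikzf2 UMI was found in 29.7% and 43.2% of Csf3r+/+ cells and in 29.9% and 28.9% of Csf3r-/- cells. Ikzf1 was found in 11.1% and 15.5% of Csf3r+/+ cells and in 11.6% and 10.7% of Csf3r-/- cells. Without thinning the shares were higher, for Ikzf3 28.0%, 20.1%, 40.6% and 48.7% in the same order.

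Foxp3 was found in 5 of 2780 cells (0.180%, exact 95% binomial interval 0.0584 to 0.419%) and in 71 of 6319 cells (1.12%, 0.879 to 1.42%) of Csf3r+/+ libraries 1 and 2. It was found in 10 of 4674 cells (0.214%, 0.103 to 0.393%) and in 64 of 5851 cells (1.09%, 0.843 to 1.39%) of Csf3r-/- libraries 1 and 2. Without thinning, Foxp3 was found in 0.246% and 1.97% of Csf3r+/+ and in 0.422% and 1.57% of Csf3r-/- cells. Ikzf4 was found in 0.144% and 0.443% of Csf3r+/+ and in 0.214% and 0.359% of Csf3r-/- cells. These intervals cover counting error only.

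Free RNA can give UMIs in cells that do not express a gene, so the shares were set beside those in another cell type. This comprised 194 barcodes with no Cd3e UMI and at least 5 UMIs of the macrophage list, thinned alike, with a median of 5776 UMIs before thinning against 2594 in the kept cells. Among them Foxp3 was found in 1.03% (2 barcodes, exact 95% binomial interval 0.125 to 3.67%) and Ikzf4 in 0.515% (1 barcode, 0.0130 to 2.84%). The shares of Foxp3 and Ikzf4 over all kept cells, 0.764% and 0.321%, were not above these shares. Ikzf1 was found in 7.22%, Ikzf2 in 14.4% and Ikzf3 in 6.70% of the macrophage barcodes, against 12.5%, 33.8% and 23.5% of the kept cells. Of the 194 barcodes, 67 held a UMI of another T cell gene, and in the 127 without one there was a UMI of Ikzf2 in 5, of Ikzf1 in 6, of Ikzf3 in 5, and of Foxp3 and Ikzf4 in 1 each. Macrophages may themselves express Ikzf1, and barcodes with T cell genes may hold more than 1 cell, so these shares are no pure measure of free RNA.

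**Figure D2:**
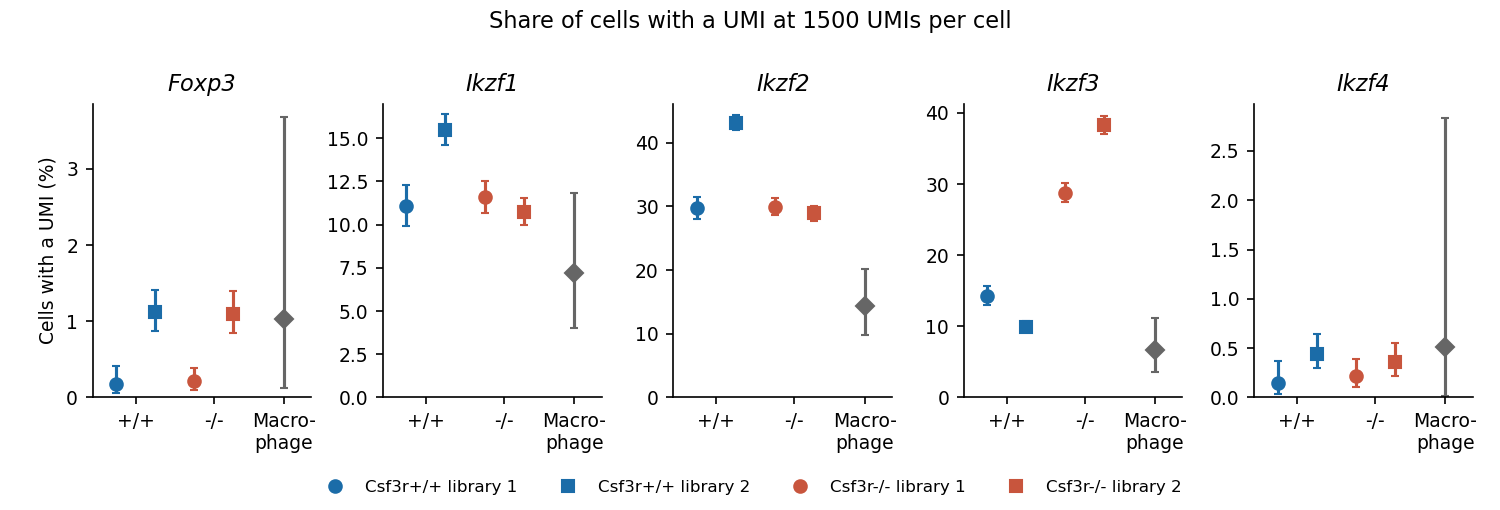
Percentage of cells with at least 1 UMI of each gene, after thinning to 1500 UMIs per cell, in the 4 libraries (blue, Csf3r+/+; red, Csf3r-/-) and in 194 macrophage barcodes without Cd3e (grey), with exact 95% binomial intervals. Ikzf1, Ikzf2 and Ikzf3 lie above the grey estimate in every library, but only the Ikzf2 intervals lie above the grey interval in every library. The Ikzf1 intervals overlap the grey one in all libraries but Csf3r+/+ library 2. The Ikzf3 interval overlaps it in Csf3r+/+ library 2. The intervals of Foxp3 and Ikzf4 overlap the grey ones.

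Few cells held several members at this depth: 42.2% of the 19624 cells had none, 45.5% had 1, 11.3% had 2, 174 cells had 3, 7 cells had 4 and none had all 5. Foxp3 and Ikzf2 went together. Of the 150 cells with a Foxp3 UMI, 110 (73.3%, exact 95% binomial interval 65.5 to 80.2%) had an Ikzf2 UMI, against 33.5% of the other cells. Within libraries this was 5 of 5 cells and 51 of 71 cells in Csf3r+/+ libraries 1 and 2, and 9 of 10 and 45 of 64 cells in Csf3r-/- libraries 1 and 2. Every library showed the same direction, the shares in cells without Foxp3 being 29.5%, 42.8%, 29.8% and 28.5%. Seen from the other side, a Foxp3 UMI was found in 1.66% of cells with Ikzf2 and in 0.308% of cells without it, so that Foxp3 UMIs were not spread evenly over the kept cells.

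UMIs of cells with and without each member were then summed per library and compared with edgeR, with the library as a block, leaving out the member that split the cells. For Foxp3 only Csf3r+/+ library 2 and Csf3r-/- library 2 had the 20 cells per arm asked for, so these folds rest on 2 libraries and 1 residual degree of freedom. Their p-values rest on spread shared across genes, and a gene's own spread between the 2 libraries hardly enters. Ikzf2 was at 1239 CPM in Foxp3 cells and 556 CPM in the others of Csf3r+/+ library 2, and at 1219 and 288 CPM in Csf3r-/- library 2. This gave a log2 fold change of 1.29 (SE 0.22, edgeR adjusted p = 1.43e-06). In the libraries left out, Ikzf2 was at 1733 against 300.1 CPM (5 Foxp3 cells, Csf3r+/+ library 1) and at 2267 against 270.2 CPM (10 Foxp3 cells, Csf3r-/- library 1). All 4 libraries thus had more Ikzf2 in the cells with Foxp3.

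Ikzf4 moved with Foxp3 as well, on very few molecules. In Csf3r+/+ library 2 it had 6 UMIs in 71 Foxp3 cells and 23 UMIs in 6248 others, or 56.3 and 2.45 CPM. In Csf3r-/- library 2 it had 5 UMIs in 64 Foxp3 cells and 18 UMIs in 5787 others, or 52.1 and 2.07 CPM. This was a log2 fold change of 4.23 (SE 1.12, edgeR adjusted p = 0.0141), and it no longer passed with cells thinned to 1000 UMIs (3.21, edgeR adjusted p = 0.867). Ikzf4 met the filter on low counts only through the small Foxp3 arms, where few UMIs suffice. Its level there was thus a condition of being tested. Csf3r-/- library 1 had 1 Ikzf4 UMI in its 10 Foxp3 cells and Csf3r+/+ library 1 had none in its 5, which allows up to 3 UMIs.

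The other Ikaros genes did not pass the test beside Foxp3. Ikzf3 was at 65.7 CPM in Foxp3 cells and 73.1 CPM in the others of Csf3r+/+ library 2, and at 187.5 and 373 CPM in Csf3r-/- library 2, a log2 fold change of -1.01 (SE 0.31, edgeR adjusted p = 0.0618). It passed with no thinning (-0.81, edgeR adjusted p = 4.79e-04) and at 1000 UMIs (-1.84, edgeR adjusted p = 0.0135). Ikzf1 was at 75.1 and 112 CPM in Csf3r+/+ library 2 and at 125 and 76.6 CPM in Csf3r-/- library 2, so that the libraries went opposite ways (log2 fold change -0.25, edgeR adjusted p = 0.946). The 2 of 4 members called compare with 1.48% of the 9573 genes tested, of which 55 were higher and 87 lower. Of the 2, Ikzf4 entered the test through the Foxp3 arms, as described above. The median log2 fold change over all genes tested was -0.24 in this comparison. Folds use TMM factors, which scale the summed counts to each other, and the CPM values do not. Some folds lay below the log2 CPM ratios of both libraries, that of Ikzf3 among them.

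**Figure D3:**
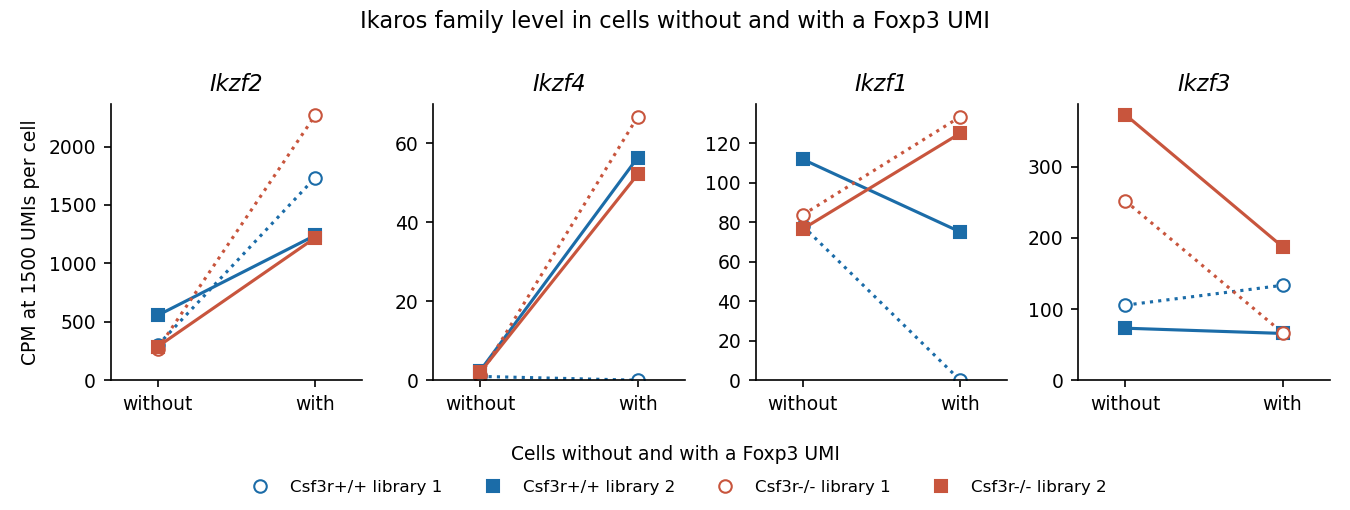
CPM of Ikzf2, Ikzf4, Ikzf1 and Ikzf3 (linear axes from 0) in cells without and with a Foxp3 UMI at 1500 UMIs per cell, joined within each library. Filled squares and solid lines are the libraries tested (64 and 71 Foxp3 cells), and open circles with dotted lines are the libraries with 5 and 10 Foxp3 cells; Ikzf2 is higher with Foxp3 in all 4 and Ikzf1 in 2.

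Cells with Foxp3 also held more UMIs of regulatory T cell genes. Of the 25 genes of that list, 22 were tested, 9 were higher and none lower, with a median log2 fold change of 1.49. Tnfrsf4, encoding the costimulatory receptor OX40, was at 1502 CPM in Foxp3 cells and 29.8 CPM in the others of Csf3r+/+ library 2, and at 1240 and 45.0 CPM in Csf3r-/- library 2. Its log2 fold change was 4.90 (edgeR adjusted p = 4e-95). Klrg1, an inhibitory lectin-like receptor, was at 272 against 3.84 CPM and at 135 against 7.60 CPM in these libraries. Izumo1r, encoding folate receptor 4, was at 469 against 28.1 CPM and at 260.4 against 15.6 CPM. The inhibitory receptor Ctla4 was at 432 against 27.0 CPM and at 458 against 109 CPM. Tnfrsf9 (4-1BB) and Tnfrsf18 (GITR) rose by 3.13 and 1.94 on the log2 scale, and the IL-2 receptor chain Il2ra by 1.68. The remaining called genes were Itgae and Areg. Those that did not pass ran from -1.28 (Irf4) to 4.21 (Lrrc32) on the log2 scale, with Tgfb1 at -0.66, Icos at -0.073 and Capg at 0.51. Among the called genes, Tnfrsf4, Klrg1, Izumo1r, Tnfrsf9 and Tnfrsf18 were also higher in type 1 than in type 3 cells. These groups are described further on. Il2ra and Itgae were lower in type 1 cells, and Ctla4 and Areg were not called there.

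**Figure D4:**
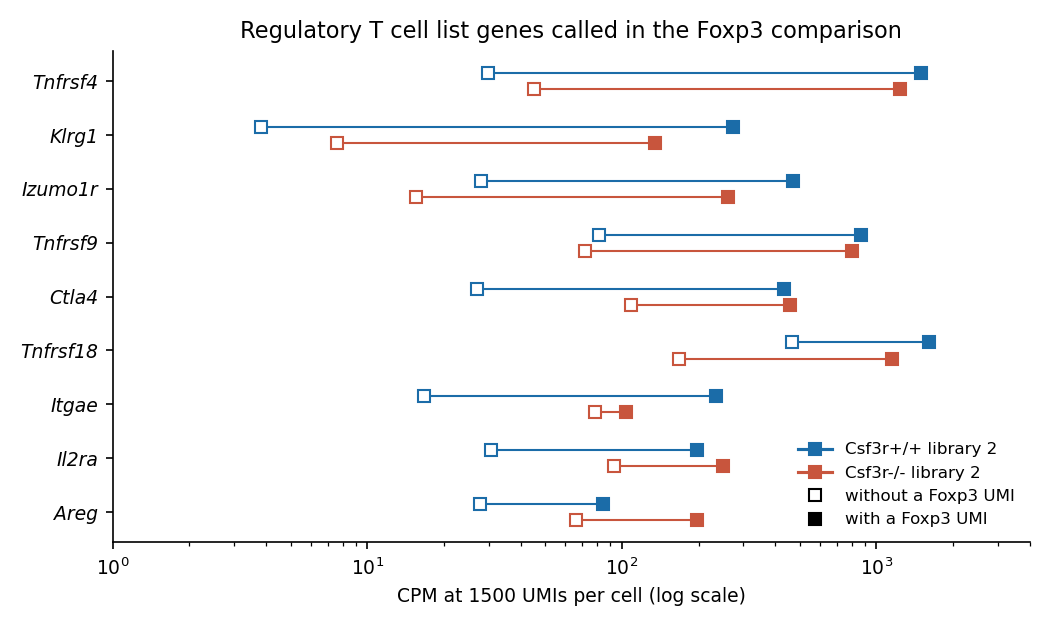
CPM (log axis) of the 9 regulatory T cell list genes called higher in cells with a Foxp3 UMI (filled squares) than in cells without one (open squares), in Csf3r+/+ library 2 (blue) and Csf3r-/- library 2 (red). The filled square lies to the right of the open one for every gene in both libraries, and the gap is widest for Tnfrsf4 and Klrg1.

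Natural killer receptors of the Ly49 family went the other way. Of the 10 genes of the type 1 and Ly49 list, Klra1, Klra6, Klra7 and Klra9 were lower in Foxp3 cells and Gzmb was higher. Klra7 was at 216 against 476 CPM in Csf3r+/+ library 2 and at 62.5 against 105 CPM in Csf3r-/- library 2 (log2 fold change -1.41). That fold lay beyond the log2 CPM ratio of either library. Klra genes are near copies of each other, so reads may be shared between them. Gzmb, encoding granzyme B, was at 1859 against 1053 CPM and at 1031 against 321 CPM (log2 fold change 0.90, edgeR adjusted p = 0.0065). Of the 9 type 3 genes, Tmem176a and Tmem176b were lower and none was higher. None of the 6 naive and circulating genes, of 12 partners and regulators of Foxp3 such as Runx1 and Satb1, or of 15 partners of Ikaros proteins such as Chd4 and Hdac1 passed the test.

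A Cd4 UMI was found in 18 of the 150 Foxp3 cells (12%, exact 95% binomial interval 7.27 to 18.3%) and in 0.313% of the other cells, although the sort removed cells with CD4 on the surface. Cd4 was at 75.1 against 3.31 CPM in Csf3r+/+ library 2 and at 93.8 against 2.995 CPM in Csf3r-/- library 2, a log2 fold change of 4.40 (edgeR adjusted p = 1.16e-04). The Cd4 UMIs in Foxp3 cells were thus few, 8 and 9, and most Foxp3 cells held none. Cd8b1 was found in 9 Foxp3 cells (6%) and in 2.53% of the others. Macrophage genes gave a UMI in 25 Foxp3 cells (16.7%) and in 11.4% of the others, and their part in these values was not tested. Median depth before thinning was 2756.5 UMIs in Foxp3 cells and 2594 in the others.

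The 3 genes with the largest fold toward Foxp3 cells, of 54 called and higher in both libraries, were Ptpn5, F830016B08Rik and Itgb8. Ptpn5, encoding a tyrosine phosphatase, was at 46.9 against 1.17 CPM in Csf3r+/+ library 2 and at 52.1 against 0.346 CPM in Csf3r-/- library 2 (log2 fold change 5.64, SE 1.44, edgeR adjusted p = 0.00954). Itgb8, the integrin chain that helps to release active TGFβ, was at 46.9 against 1.28 CPM and at 62.5 against 1.04 CPM (log2 fold change 5.19, SE 1.28, edgeR adjusted p = 0.0062). F830016B08Rik was at 84.5 against 0.534 CPM and at 10.4 against 1.04 CPM (log2 fold change 5.55, edgeR adjusted p = 0.0115). All of these rest on few UMIs in 71 and 64 cells. In the other cells the 3 genes were too low for the filter on low counts. They were tested only because few UMIs met it in the small Foxp3 arms, so their rank by fold was partly set by the filter.

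Ikzf2 was frequent enough for a comparison in all 4 libraries. Foxp3 was the gene with the largest fold toward Ikzf2 cells, of 158 called and higher in every library. It was at 5.66 CPM with and 0 CPM without Ikzf2 in Csf3r+/+ library 1, and at 16.4 and 3.90 CPM in Csf3r+/+ library 2. In the Csf3r-/- libraries it was at 5.25 and 0.204 CPM (library 1) and at 23.2 and 3.05 CPM (library 2). These are 7, 67, 11 and 59 UMIs with and 0, 21, 1 and 19 UMIs without Ikzf2. Foxp3 met the filter on low counts through the cells with Ikzf2. The log2 fold change was 2.72 (SE 0.30, edgeR adjusted p = 1.06e-04), and it lay between 2.59 and 3.23 when each library was left out in turn. It is the co-detection of Foxp3 and Ikzf2 given above, seen from the other side.

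Ikzf3 was lower in cells with Ikzf2. It was at 84.8 against 114 CPM and at 54.0 against 87.4 CPM in Csf3r+/+ libraries 1 and 2, and at 216 against 267 CPM and at 302 against 399 CPM in Csf3r-/- libraries 1 and 2. All 4 libraries showed the lower value with Ikzf2, a log2 fold change of -0.43 (SE 0.069, edgeR adjusted p = 0.00236). Within the groups by markers described further on, the shares lay closer together. Over type 3 cells an Ikzf3 UMI was found in 35.1% of cells with and 37.7% of cells without Ikzf2, and it was the less frequent one with Ikzf2 in all 4 libraries. Over type 1 cells it was found in 8.96% and 10.8%, but with Ikzf2 it was the more frequent one in both libraries numbered 1 (9.47% against 8.15% in Csf3r+/+ and 12.7% against 10.7% in Csf3r-/-). These shares were not tested. Ikzf1 did not differ beyond the spread (-0.040, edgeR adjusted p = 0.905). The 2 of 3 members called, Ikzf4 being too low to be tested, compare with 3.11% of the 9430 genes tested.

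Regulatory T cell genes moved in both directions beside Ikzf2. Tnfrsf4, Klrg1, Izumo1r, Tnfrsf9 and Tnfrsf18 were higher and Icos, Capg and Areg lower, of 20 tested, with a median log2 fold change of -0.049. The same 5 genes were also higher, and Icos and Capg lower, in type 1 than in type 3 cells, groups described further on. In that comparison 7 genes of the list were higher and 5 lower, of 17 tested, where 30.7% of all genes were called. Areg was not called there. Between cells with and without Ikzf2, Tnfrsf4 was at 36.4 against 2.05 CPM and at 83.6 against 18.0 CPM in Csf3r+/+ libraries 1 and 2, and at 28.1 against 6.92 CPM and at 138 against 25.8 CPM in Csf3r-/- libraries 1 and 2 (log2 fold change 2.39, SE 0.15, edgeR adjusted p = 5.4e-07). Car2, encoding a carbonic anhydrase, followed among the 3 largest folds (2.02, SE 0.13, edgeR adjusted p = 5.4e-07). Of the type 3 list, Il17a, Blk, Ccr6, Tmem176a and Tmem176b were lower and none of 9 was higher. The interaction with genotype was called for 4 of these 9 genes, Il17a, Tmem176a and Tmem176b among them. All went toward higher values beside Ikzf2 in Csf3r-/-. The libraries also differed in their share of type 3 cells, whose part in this was not tested. Of the naive and circulating list, 3 genes were higher and none of 6 lower. Ccr7, encoding a chemokine receptor for entry into lymph nodes, rose by 0.88 on the log2 scale.

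Ly49 receptors did not move as a block beside Ikzf2. Klra6 (1.74), Klra7 (1.24) and Klra1 (1.11) were higher on the log2 scale and Klra9 (-1.04) was lower, of 10 genes of the type 1 and Ly49 list. Klre1 (0.74), which is in that list but is not a Klra gene, was higher too. Klra6 was at 134 against 40.2 CPM and at 161 against 59.4 CPM in Csf3r+/+ libraries 1 and 2, and at 49.6 against 13.0 CPM and at 50.04 against 10.6 CPM in Csf3r-/- libraries 1 and 2. Ikzf2 cells had a median of 2972 UMIs before thinning and the others 2431. A macrophage UMI was found in 10.2% of Ikzf2 cells and 12.02% of the others.

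Cells with Ikzf3 had less Ikzf2 and more UMIs of type 3 genes. Ikzf2 was lower beside Ikzf3 (log2 fold change -0.51, SE 0.068, edgeR adjusted p = 2.94e-04), a call that was lost without thinning (-0.26, edgeR adjusted p = 0.147). It is the other side of the lower Ikzf3 beside Ikzf2. Foxp3 stood at -0.72 (SE 0.29, edgeR adjusted p = 0.225) and Ikzf1 at 0.0074 (edgeR adjusted p = 0.995). The 1 of 3 members called compares with 5.06% of the 9467 genes tested. Of the type 3 list, 6 genes were higher, among them Il17a, Ccr6, Blk and Tmem176a, and none of 9 was lower. Il17a, the signature cytokine of type 3 cells, was at 8.38 against 11.5 CPM and at 48.8 against 3.05 CPM in Csf3r+/+ libraries 1 and 2, and at 336 against 185 CPM and at 1949 against 1165 CPM in Csf3r-/- libraries 1 and 2. Csf3r+/+ library 1 therefore did not share the direction of the other 3.

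Of 10 type 1 and Ly49 genes, 7 were lower beside Ikzf3 and none was higher, Klra6 falling most (-1.49 on the log2 scale). The interaction with genotype was called for 7 of the 10 genes, all toward a lower value beside Ikzf3 in Csf3r-/-, with a median of -1.42. Ikzf3 cells also differed in make-up by the marker groups described further on. Over all libraries 74.9% of them were type 3 cells, against 39.0% of the others. In Csf3r+/+ library 2, 344 of 629 Ikzf3 cells were type 1 and 104 were type 3. In Csf3r-/- library 2, 1978 of 2238 were type 3. The part of this make-up in the interaction was not tested. Klra7 was at 209 against 415 CPM and at 397 against 481 CPM in Csf3r+/+ libraries 1 and 2, and at 50.5 against 171 CPM and at 37.5 against 147 CPM in Csf3r-/- libraries 1 and 2. Gzmb was higher beside Ikzf3 in Csf3r+/+ library 2 (1141 against 1053 CPM) and lower in the other 3 libraries. For Klra6 the interaction was not called. Of 6 naive and circulating genes, 4 were lower, among them Ccr7 (-0.97) and Lef1 (-0.71 on the log2 scale). Regulatory T cell genes were divided, with Icos, Nrp1, Il2ra, Itgae, Ctla4 and Capg higher and Izumo1r, Tnfrsf18, Tnfrsf9 and Il2rb lower, of 20 tested. All of these but Ctla4 were also called, in the opposite direction, in type 1 over type 3 cells. Among partners of Foxp3, Runx1 was higher and Satb1 and Foxp1 were lower, and none of 15 Ikaros partners passed. The 3 largest folds toward Ikzf3 cells, of 188, were Hk2 (1.21), encoding a hexokinase of glycolysis, Mtmr7 (0.87) and Gldc (0.87). Gldc was close to the limit of detection in Csf3r+/+, at 1.68 against 0.840 CPM (library 1) and 1.06 against 0.117 CPM (library 2). In Csf3r-/- it was at 11.9 against 6.01 CPM (library 1) and 39.9 against 22.0 CPM (library 2). A macrophage UMI was found in 15.2% of Ikzf3 cells and 10.3% of the others, and its part was not tested.

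In thinned cells edgeR called no other member beside Ikzf1, whereas beside Ikzf4 it called Foxp3 alone among the members. Beside Ikzf1, none of the 3 members tested passed (Foxp3 -0.13, Ikzf2 -0.0076 and Ikzf3 -0.0087 on the log2 scale), where edgeR called 8 of 8943 genes (0.0895%). No type 1 and Ly49 gene was called there, although the interaction with genotype was called for 5 of those 10 genes. All 5 went toward higher values beside Ikzf1 in Csf3r-/-, and the part of the cell make-up of the libraries was not tested. Of the 8 genes called, 2 were macrophage list genes, which were lower beside Ikzf1. With no thinning, Ikzf3 was called lower beside Ikzf1 (-0.25, edgeR adjusted p = 0.0018). The 3 genes highest beside Ikzf1 were Ly6c2 (0.27), Ms4a4b (0.25) and the heat-shock gene Hspa1a (0.23), all small folds. Cells with Ikzf4 numbered 4, 28, 10 and 21 in the libraries, and only the 2 libraries numbered 2 were tested. Foxp3 had 8 UMIs in 28 Ikzf4 cells of Csf3r+/+ library 2 and 7 UMIs in 21 Ikzf4 cells of Csf3r-/- library 2, or 190.5 against 8.48 CPM and 222 against 8.12 CPM. Its log2 fold change of 4.04 (SE 0.90, edgeR adjusted p = 0.00454) was the largest of the 7 genes called and higher in both libraries, before Klrg1 (3.81) and Tnfrsf4 (3.74). This is no further evidence beside the Foxp3 split. Both rest on the same cells with Foxp3 and Ikzf4, 6 in Csf3r+/+ library 2 and 4 in Csf3r-/- library 2.

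Ikzf2 stood at 0.76 beside Ikzf4 (SE 0.23, edgeR adjusted p = 0.0667) and passed with DESeq2 (1.05, adjusted p = 0.039) and without thinning (0.77, edgeR adjusted p = 7.01e-06). Ikzf3 (-1.12) and Ikzf1 (-1.84) did not pass. The 1 of 4 members called compares with 1.24% of the 9325 genes tested, where the median log2 fold change over all genes was -0.61. As in the Foxp3 split, folds could lie below the log2 CPM ratios, and that of Foxp3 lay below both. The difference between genotypes of these splits was tested as an interaction for Ikzf1, Ikzf2 and Ikzf3. None of the 9 member values passed (edgeR adjusted p from 0.107 to 0.894), while 0.313%, 0.594% and 0.56% of all genes did in the splits by Ikzf1, Ikzf2 and Ikzf3.

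The members were next compared between cells grouped by markers of the states that the study describes. A cell was placed with the type 1 and Ly49 list (such as Tbx21, Ifng and Gzmb), the type 3 list (such as Il17a, Blk and Tmem176b) or the naive and circulating list (such as Ccr7, Lef1 and Tcf7) if it held at least 2 UMIs of that list and at least 2 more than of either other. This gave 5868, 9312 and 676 cells, with 3768 left over. The median cell held 6 UMIs of its own list in the type 1 and type 3 groups and 3 in the naive group, and 0 of either other list. The groups are ranges of these counts and not cell types, and 1025, 757 and 363 of their cells lay at the limit. No member is in a list.

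Helios and Aiolos differed between these groups in opposite directions. Ikzf2 was at 467, 523, 382 and 509 CPM in type 1 cells of Csf3r+/+ libraries 1 and 2 and Csf3r-/- libraries 1 and 2, and at 122, 159, 235 and 213 CPM in type 3 cells. Every type 1 value was above every type 3 value, with means of 470.4 ± 63.7 and 182 ± 51.4 CPM (SD, n = 4). The log2 fold change was 1.52 (SE 0.18, edgeR with the library as a block, adjusted p = 7.18e-07). Ikzf3 was at 59.9, 70.5, 94.6 and 87.6 CPM in type 1 cells and at 149, 214, 304 and 450.3 CPM in type 3 cells, again without overlap. The means were 78.1 ± 15.8 and 279 ± 130.4 CPM, a log2 fold change of -1.55 (SE 0.16, edgeR adjusted p = 5.54e-08).

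Ikzf1 was at 79.0, 110.4, 118 and 101 CPM in type 1 cells and at 72.2, 125, 70.2 and 70.8 CPM in type 3 cells. These values overlapped, and Csf3r+/+ library 2 had the higher value in type 3 cells. The log2 fold change of 0.52 (SE 0.13, edgeR adjusted p = 0.00391) was lost without Csf3r-/- library 1 (0.39, adjusted p = 0.0687) and at 1000 UMIs (0.39, adjusted p = 0.0538). The 3 of 3 members called compare with 30.7% of the 7280 genes tested, since the groups differ in many genes. Foxp3 and Ikzf4 were too low to be tested. Foxp3 had 4, 51, 6 and 17 UMIs in the type 1 cells and 0, 1, 2 and 29 UMIs in the type 3 cells of the same libraries, or 2.47, 9.79, 6.92 and 15.4 CPM against 0, 1.62, 0.411 and 4.46 CPM. Type 1 cells were thus above type 3 cells in each library. The cells left over had 3.97, 10.4, 3.64 and 27.5 CPM, above type 1 cells in all but Csf3r-/- library 1. Naive cells had 15.2, 7.58, 0 and 26.0 CPM, on few UMIs. Of the Foxp3 cells, 36.7% were in no group, against 19.1% of the others. A macrophage UMI was found in 8.38% of type 1 and 14.3% of type 3 cells, and its part was not tested.

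Cells with naive and circulating markers also had more Ikzf2 and less Ikzf3 than type 3 cells. Ikzf2 was at 591, 802, 307 and 745 CPM and Ikzf3 at 90.9, 22.7, 34.8 and 95.2 CPM. Against type 3 cells, Ikzf2 was higher (log2 fold change 1.85, edgeR adjusted p = 9.45e-07), Ikzf1 was higher (0.63, adjusted p = 0.0324) and Ikzf3 was lower (-2.51, adjusted p = 4.26e-07), where 18.1% of all genes were called. The Ikzf1 call was lost under 6 alternatives, with an edgeR value of 0.47 (adjusted p = 0.212) without Csf3r-/- library 1. Against type 1 cells none of the 3 members passed, where 1.7% of all genes were called, and Ikzf3 stood at -0.96 (adjusted p = 0.141). These groups held 44 to 440 cells per library, and without a filter on low counts that Ikzf3 value passed (-1.04, edgeR adjusted p = 0.00321).

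**Figure D5:**
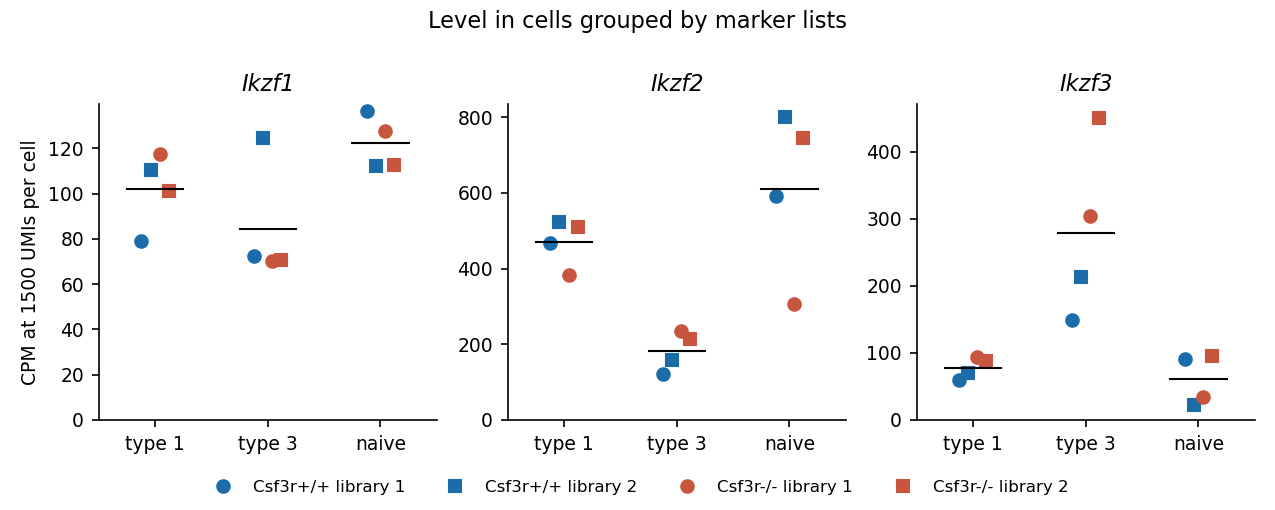
CPM of Ikzf1, Ikzf2 and Ikzf3 (linear axes from 0) in cells grouped by type 1 and Ly49, type 3 or naive and circulating markers, at 1500 UMIs per cell, with 1 point per library (blue, Csf3r+/+; red, Csf3r-/-) and black lines at the means of the 4 libraries. Ikzf2 is lowest and Ikzf3 highest in the type 3 group in every library.

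The libraries differed in how many cells fell into each group. Type 1 cells were 38.8% and 54.9% of Csf3r+/+ libraries 1 and 2, against 12.4% and 12.6% of Csf3r-/- libraries 1 and 2. Type 3 cells were 47.5% and 6.52% of the former, against 69.5% and 74.0% of the latter. Genotypes were therefore also compared within groups. Among type 1 cells, Ikzf3 was at 59.9 and 70.5 CPM in the Csf3r+/+ and 94.6 and 87.6 CPM in the Csf3r-/- libraries. Its log2 fold change was 0.47 (SE 0.25, edgeR adjusted p = 0.981) and no member was called, against 1.32% of all genes. In the cells left over, Ikzf3 was at 81.3 and 59.5 against 176 and 211 CPM, with no test run. The genotypes did not overlap in either, and the share of all genes without overlap was not computed there. In naive cells the Ikzf3 values overlapped. Among type 3 cells, Ikzf3 was at 149 and 214 CPM in the Csf3r+/+ and 304 and 450.3 CPM in the Csf3r-/- libraries, a log2 fold change of 1.06 (SE 0.30, edgeR adjusted p = 0.293). Ikzf2 was at 122 and 159 against 235 and 213 CPM there, a log2 fold change of 0.67 (SE 0.21, edgeR adjusted p = 0.352). Neither was called, against 0.828% of all genes, and the absence of overlap between genotypes in both was shared by 41.6% of all genes tested. With no filter on low counts the Ikzf3 value among type 3 cells passed (1.11, edgeR adjusted p = 0.00116).

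The share of each group was also set to its mean over the 4 libraries, keeping each library's own level within each group. Ikzf3 then came to 109 and 138 CPM in the Csf3r+/+ and 211 and 289 CPM in the Csf3r-/- libraries, compared with 106 and 73.0 CPM and 252 and 371 CPM in the same cells as they were. Ikzf2 came to 297 and 377 CPM in the Csf3r+/+ and 303 and 378 CPM in the Csf3r-/- libraries, compared with 303 and 563 CPM and 274 and 298 CPM. At equal shares of these groups the genotypes thus overlapped in Ikzf2 and did not overlap in Ikzf3. The make-up of cells within a group was not made equal. The share of all genes without overlap at equal shares of the groups was not computed. It was 47.9% over all cells and 41.6% within type 3 cells as they were. These are descriptions with no test. In the genotype comparison over all cells, none of 24 regulatory T cell genes, 12 partners and regulators of Foxp3 or 15 partners of Ikaros proteins was called by edgeR, with median log2 fold changes of 0.49, 0.079 and 0.0056.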

How the data were processed

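Sorting kept leukocytes with TCRβ and without CD11b, TCRγδ, CD4 or CD8. The authors counted UMIs with Cell Ranger (mm10) and joined the libraries of each genotype in 1 matrix, and the deposited values are raw UMI counts. The number after each barcode separated the libraries. Of 27998 gene identifiers, 27645 were found in GENCODE vM21. Members and gene lists were chosen with earlier results of these data known. Sums of counts for each library, or for each kind of cell within it, entered the quasi-likelihood test of edgeR 4.0.16 with TMM factors, after filterByExpr, with Benjamini-Hochberg adjustment over all genes tested and a threshold of 0.05. DESeq2 1.42.0 was an alternative, as were other depths, filters and cells, a replicate block, and each library left out. In the genotype comparisons, which have no block, p-values are set against the spread between libraries of a genotype. In the member splits and marker groups the library is a block. In the Ikzf1, Ikzf2 and Ikzf3 splits and the marker groups, p-values are set against how the difference within libraries varies over the 4 libraries. Spread shared across genes enters too. In the Foxp3 and Ikzf4 splits, which have 2 libraries, and in the Ikzf1 interaction, p-values match a normal distribution of fold over SE. They thus rest on spread shared across genes, and a gene's own spread between libraries hardly enters. The Foxp3 and Ikzf4 splits have 1 residual degree of freedom, also where p-values are very small. The genes named were the 5 members, the 3 genes of largest fold in each member split among those called and higher in every library tested, and list genes as counts with examples. Since filterByExpr takes both arms of a split, a gene low in 1 arm could enter the test through the other. Tested on simulated data, edgeR recovered 99.5% of 200 genes changed by 2 on the log2 scale between genotypes, with 5.69% false calls. It recovered 56% between cells with and without Foxp3, and 100% between those with and without Ikzf2. All genes had a fixed simulated dispersion of 0.05, and only genes above the median level were changed. The spread between the libraries here was not put into the simulation, so these shares do not give the power of the comparisons above.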

Additional observations from a re-analysis of the deposited data

Results flagged for a closer look

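Foxp3 also appeared in barcodes that the comparisons left out. A Foxp3 UMI was found in 134 of 11050 barcodes within the other limits that had no Cd3e UMI (1.21%, unthinned), against 1.23% of the kept cells. Of these 134, 132 held a UMI of another T cell gene. The other members were alike in this, with 2111 of 2180 such barcodes for Ikzf1, 4513 of 4556 for Ikzf2, 2913 of 2966 for Ikzf3 and 73 of 76 for Ikzf4. The barcodes with Foxp3 numbered 4, 82, 6 and 42 in Csf3r+/+ libraries 1 and 2 and Csf3r-/- libraries 1 and 2. Library 2 was thus again the higher one in both genotypes.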

How the results depend on the processing

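All values are log2 fold changes or counts of genes called unless a share is named. Between genotypes, DESeq2 called 626 genes and edgeR without a filter on low counts 303, and Ikzf3 then passed (1.72 in both). With a replicate block on the barcode number, which the labels do not tie to animals, edgeR called 300 genes and Ikzf3 stood at 1.69 (adjusted p = 0.0625), and no member's call changed. Leaving out each library in turn, which leaves a genotype with 1 library assumed to vary like the other genotype's, gave 0 to 847 genes (847 without Csf3r+/+ library 1), Foxp3 at -1.51 to 1.84, Ikzf1 at -0.57 to 0.057, Ikzf2 at -1.24 to -0.086 and Ikzf4 at -0.9998 to 1.09, so that the directions of Foxp3, Ikzf1 and Ikzf4 depended on the libraries used. Shares of cells without thinning differed by -9.19 points for Ikzf1 and -0.226 points for Ikzf4.

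For cells with against without a member, DESeq2 called 54 genes for Foxp3, 3 for Ikzf1, 126 for Ikzf2, 126 for Ikzf3 and 28 for Ikzf4. No thinning gave 419, 481, 498, 153 and 64 genes in the same order. Thinning to 1000 UMIs gave 89 genes for Foxp3 and 308 for Ikzf3. Without a filter, Ikzf1 gave 20 genes, Ikzf2 538 and the naive against type 1 cells 279. Leaving out each library gave 1 to 25 genes for Ikzf1, 129 (without Csf3r+/+ library 1) to 332 for Ikzf2, and 116 (without Csf3r-/- library 1; 200 without Csf3r-/- library 2) to 683 for Ikzf3. Accepting arms of at least 4 cells, chosen after seeing the data, gave Ikzf2 at 1.57 beside Foxp3. For Foxp3 and Ikzf4 no library could be left out, since 1 library leaves no residual degrees of freedom.

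Some values near 0 changed sign. Beside Ikzf1, DESeq2 gave Foxp3 at 0.059 and Ikzf3 at 0.021, no thinning gave Ikzf2 at 0.069, 1000 UMIs gave Ikzf3 at 0.0097, and leaving out libraries gave Foxp3 at -0.59 to 0.59, Ikzf2 at -0.085 to 0.055 and Ikzf3 at -0.080 to 0.12. Ikzf1 ranged from -0.095 to 0.059 beside Ikzf2 and from -0.089 to 0.14 beside Ikzf3, where it was -0.026 without a filter and -0.17 without thinning. The genotype difference of Ikzf2 beside Ikzf3 was 0.033 at 1000 UMIs. Between genotypes within type 1 cells, leaving out libraries gave Foxp3 at -0.067 to 2.21, Ikzf1 at -0.070 to 0.50 and Ikzf2 at -0.44 to 0.099. Ikzf1 in type 1 over type 3 cells was 0.39 at 1000 UMIs and 0.39 to 0.66 with each library left out. The causes were not tested. Depth limits Foxp3 and Ikzf4 most, with 9 to 188 UMIs per library.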
